A study of Mus musculus with 29 samples.

Results

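Voltage-gated sodium channels were described in single retinal ganglion cells (RGCs), the neurons that carry the output of the retina to the brain. The set held 9 genes chosen by name from 18194 genes on the array: the 6 alpha subunit genes Scn1a, Scn2a, Scn3a, Scn7a, Scn8a and Scn9a and the 3 beta subunit genes Scn2b, Scn3b and Scn4b. All 28 probe sets that the array annotation assigns to them were read in each of 29 cells.

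The 29 RGCs came from retinas of adult C57BL/6 mice (C57BL/6J in the methods of the study) with no transgene or treatment named. Each cell was classified by its spike responses to light in a cell-attached recording, its soma was aspirated, and its cDNA was amplified by 35 cycles of PCR and hybridised to 1 array. There were 4 ON direction-selective (ON DS) cells, 4 ON-OFF DS cells, 1 ON orientation-selective cell for vertical (ON vOS) and 1 for horizontal (ON hOS) stimuli, 2 ON alpha, 4 OFF sustained alpha (OFF S alpha), 3 OFF transient alpha (OFF T alpha), 2 suppressed-by-contrast (SbC) cells, and 1 cell each of local edge detector (LED), ON pixel encoder (PixON), Eyewire 4i, Eyewire 6sn, Eyewire 6sw, J-RGC, ON sustained non-alpha (ON S non-alpha) and OFF high speed selective type. Cells carry the number of their label, and the broad classes used here are DS (8 cells), OS (2), alpha (9) and the others (10). No source used here says which cells shared an animal, so cells were not treated as replicates of a subtype, no test was run, and every interval given covers counting error only.

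A voltage-gated sodium channel is a large pore-forming alpha subunit that opens on depolarization and drives the upstroke of the action potential. Smaller beta subunits, single-pass membrane proteins with an immunoglobulin domain, bind the alpha subunit, shift its gating and take part in cell adhesion. In RGCs the channels are concentrated at the axon initial segment, where spikes begin, and are anchored there by ankyrin-G. Scn8a encodes the alpha subunit that dominates the initial segment and nodes of mature axons, and Scn2a the one found at young initial segments and along unmyelinated axons.

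Signals are linear MAS5 intensities, scaled so that the mean of each array, after trimming of the extreme 2% of values, is 1500. A gene was called detected in a cell at a signal of 3000 or more, which is 2 times that mean, at its brightest probe set over the 29 cells. Each array detected a median of 2908 genes (range 1182 to 4201). RNA that was present but not captured or amplified from a single soma cannot be told apart from RNA that was absent. Of 14 RGC marker genes with a probe set, each cell held between 5 and 13 (median 10), so the label RGC was borne out by its markers in most of the cells, with 5 in Eyewire 6sw 21 and SbC 26. Rod photoreceptor genes were also found: 18 cells held 5 or more of 9 rod markers, and these are called rod-rich.

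Because Scn2b and Scn4b lie next to each other and were detected in 14 and 0 cells, and Scn8a was the member found in most cells, the sequences at the starts of these genes are shown. They come from RefSeq (GRCm38.p6) and run 5′ to 3′ from 250 bases before the transcription start to 50 after it, with each CG dinucleotide in capitals.
Scn8a, chr15:100870395-100870694, plus strand: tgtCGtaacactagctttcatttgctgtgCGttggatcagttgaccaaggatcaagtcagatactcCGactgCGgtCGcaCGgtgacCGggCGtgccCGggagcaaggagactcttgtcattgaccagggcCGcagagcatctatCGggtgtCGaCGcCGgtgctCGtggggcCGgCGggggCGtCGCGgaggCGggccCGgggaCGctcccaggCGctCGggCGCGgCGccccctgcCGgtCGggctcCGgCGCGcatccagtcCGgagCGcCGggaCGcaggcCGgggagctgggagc
Scn2b, chr9:45117626-45117925, plus strand: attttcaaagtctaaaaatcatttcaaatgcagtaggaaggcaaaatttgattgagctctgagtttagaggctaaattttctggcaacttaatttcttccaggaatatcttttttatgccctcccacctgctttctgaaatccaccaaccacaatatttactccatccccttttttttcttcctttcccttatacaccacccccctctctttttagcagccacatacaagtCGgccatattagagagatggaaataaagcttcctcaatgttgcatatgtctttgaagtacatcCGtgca
Scn4b, chr9:45138374-45138673, plus strand: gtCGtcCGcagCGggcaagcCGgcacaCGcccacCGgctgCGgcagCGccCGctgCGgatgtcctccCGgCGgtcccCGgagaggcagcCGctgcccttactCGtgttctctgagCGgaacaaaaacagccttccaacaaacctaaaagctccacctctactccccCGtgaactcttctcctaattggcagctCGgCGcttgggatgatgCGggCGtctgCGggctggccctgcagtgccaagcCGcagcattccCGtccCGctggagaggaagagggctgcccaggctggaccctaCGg
The Scn2b start held 2 CG dinucleotides and 38.3% G and C, the Scn4b start 26 and 66.3%, and the Scn8a start 38 and 70.0%. Among 32851 mouse promoters of the same length the median was 7 CG, 94.6% held at least 1, 85.9% held at least as many as Scn2b, 16.9% as many as Scn4b and 5.0% as many as Scn8a. Scn8a has another annotated start with 12 CG. A CG-rich start therefore occurred both at the most widely detected member and at one detected in no cell on these arrays. RefSeq starts were matched for 7 of the 9 genes.

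The members fall into 4 places in the genome. Scn3a, Scn2a, Scn1a, Scn9a and Scn7a lie in that order within 1327.8 kb of chromosome 2, Scn8a stands alone on chromosome 15, and Scn2b and Scn4b are 8.6 kb apart on chromosome 9 with no coding gene between them. Scn3b lies on the same chromosome, 4826.3 kb from Scn2b. The 5 neighbours on chromosome 2 were detected in 5, 12, 1, 0 and 5 cells in that order.

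Scn8a was the most widely detected member, in 23 of 29 cells (79.3%, exact 95% interval 60.3 to 92.0%). Scn2b followed with 14 cells, Scn2a with 12, Scn3b with 8, Scn3a and Scn7a with 5 each and Scn1a with 1, while Scn9a and Scn4b were detected in none. Scn2b was found in 48.3% of cells (29.4 to 67.5%) and Scn2a in 41.4% (23.5 to 61.1%). The intervals of all neighbours in this order overlapped. All genes were read in the same 29 cells, so overlap of intervals does not show whether 2 shares differ. Scn8a without Scn2b was found in 11 cells, and Scn2b without Scn8a in 2. Together the cells held 68 detections out of 261 possible pairs of cell and gene. Of all 18194 genes, 10.6% were detected in 15 or more cells, and of the members only Scn8a was.

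**Figure D1:**
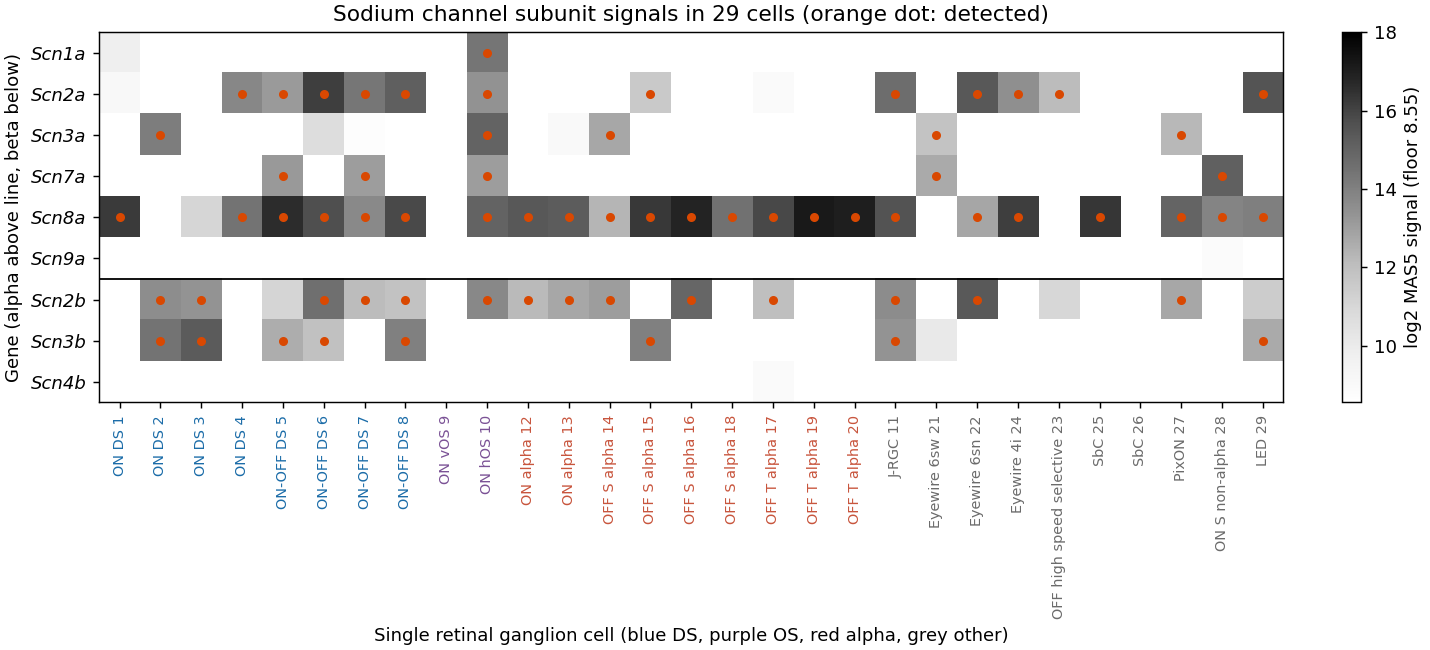
The grey shade gives the log2 MAS5 signal of each sodium channel gene (rows, alpha above the line and beta below it) in each of the 29 cells (columns, coloured by class), and an orange dot marks a signal of 3000 or more. Scn8a has a dot in 23 columns and all 9 alpha RGC columns, whereas Scn9a and Scn4b have none.

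Scn8a was detected in all 9 alpha cells at its brightest probe set. The 2 ON alpha cells gave 43568 and 39165, the 4 OFF S alpha cells gave 5224, 79419, 116654 and 23145, and the 3 OFF T alpha cells gave 60268, 148881 and 133886. At this probe set the OFF T alpha cells lay above both ON alpha cells, and the OFF S alpha cells reached both below and above the ON alpha cells. OFF T alpha 19 and 20 were the brightest of the 29 cells there. The order was not the same at another probe set, 1423515_at. There OFF T alpha 20 (32161) lay just under ON alpha 13 (32173), and ON DS 1 was the brightest cell (71481).

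Among DS cells Scn8a was present in 6 of 8 at its brightest probe set. All 4 ON-OFF DS cells carried it, at 101381, 52708, 13372 and 58448, and the 4 ON DS cells gave 77076, 10, 2115 and 22112. ON DS cells were thus split between 2 with clear signal and 2 below the threshold. Of the other 12 cells, 8 carried Scn8a, from 6944 in Eyewire 6sn 22 to 84585 in SbC 25. The cells below the threshold there were ON vOS 9 (42), Eyewire 6sw 21 (347), OFF high speed selective 23 (109) and SbC 26 (46).

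Most of the 6 cells without Scn8a had many rod transcripts. In 5 of the 6 all 9 rod markers were detected, against 6 of the 23 cells with Scn8a, and ON DS 2, the exception, held 0. They had 1182 to 4201 detected genes (median 1932.5), against 1672 to 4073 (median 2981) in the 23, and 5 to 10 RGC markers (median 8) against 7 to 13 (median 11). The part of rod RNA and of library quality in the missing Scn8a signal was not tested.

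A separate probe set put Scn8a in 1 of the 6. At 1423515_at, ON DS 3 gave 35909, while it was at 2115 at the main probe set, 1457412_at. The 2 probe sets were both above threshold in 16 cells, the first in 17 and the main one in 23. Their log2 signals correlated with r = 0.57 (rho = 0.56) over the 29 cells, which share the same libraries. Below the threshold at 1423515_at but not at the main one were OFF S alpha 14 (54), 16 (3) and 18 (3). So were ON-OFF DS 7 (158) and 8 (91), J-RGC 11 (872) and ON S non-alpha 28 (4). Detection in all alpha and all ON-OFF DS cells thus rests on the main probe set. A further probe set, 1451894_a_at, passed only in ON DS 1 (28484), ON hOS 10 (25163) and OFF T alpha 20 (8937). The 2 remaining ones passed in no cell.

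**Figure D2:**
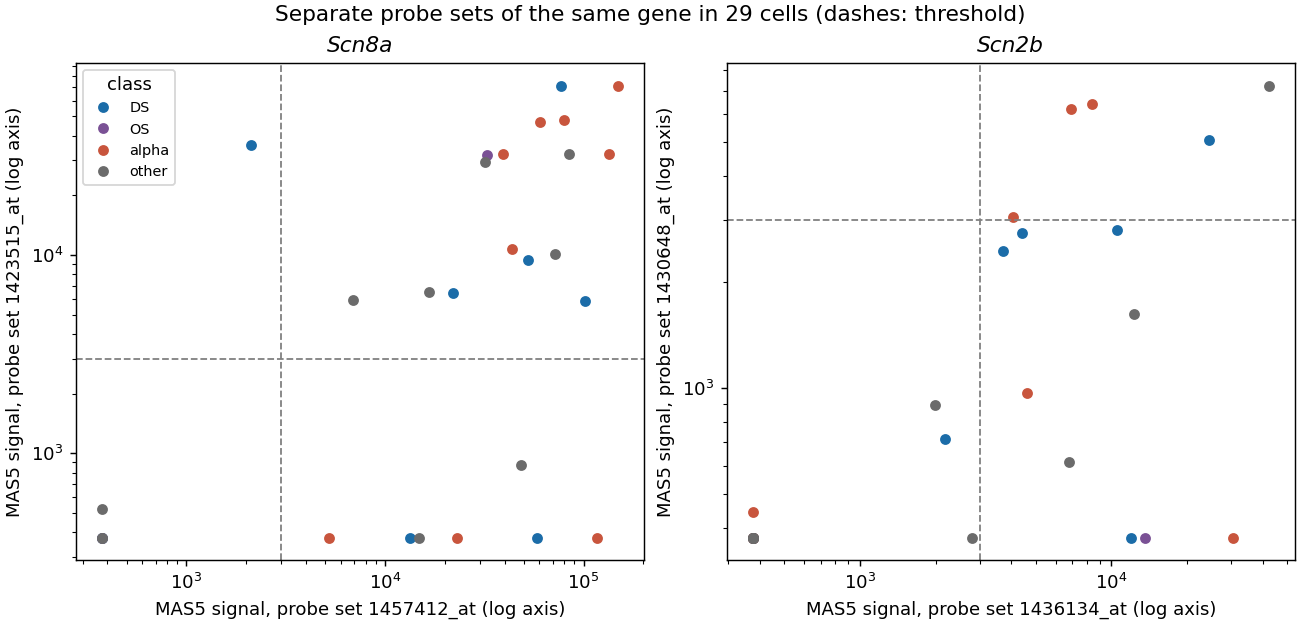
Each point is 1 cell, coloured by class, with the MAS5 signal of 1 probe set on each logarithmic axis for Scn8a (left) and Scn2b (right), values under 375 drawn at 375 and the threshold of 3000 dashed. ON DS 3 is the Scn8a point at the upper left, at 2115 and 35909, and 5 Scn2b points pass on both axes.

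Scn2a was found in 12 cells, and its signals did not overlap between the ON-OFF DS and alpha cells. ON-OFF DS cells 5 to 8 gave 9137, 71823, 20609 and 36074. The 2 ON alpha cells gave 5 and 23, the 4 OFF S alpha cells 7, 3028, 8 and 2, and the 3 OFF T alpha cells 493, 150 and 23. Every ON-OFF DS cell was above every alpha cell, and the lowest ON-OFF DS signal was 3.02 times the highest alpha signal. The same non-overlap held for 0.38% of the 7113 genes detected in 3 or more cells, 27 genes in all. Both bounds rest on single cells. Without OFF S alpha 15, the alpha cell at 3028, no alpha cell was above the threshold and the highest read 493, and without ON-OFF DS 5, the cell at 9137, the ratio was 6.81.

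The ON DS cells did not share the pattern. They gave 543, 4, 7 and 14067, so only ON DS 4 carried Scn2a and their range overlapped that of the ON-OFF DS cells. Outside the DS and alpha classes Scn2a was detected in ON hOS 10 (10863), J-RGC 11 (26110), Eyewire 6sn 22 (42869), OFF high speed selective 23 (4444), Eyewire 4i 24 (11410) and LED 29 (47579). The other 6 cells were between 1 and 93. Only 1435933_at of the 4 Scn2a probe sets was above threshold in any cell, so these values rest on 1 probe set.

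The remaining alpha subunit genes were found in few cells. Scn3a, best known from the embryonic brain, was detected in ON DS 2 (17673), ON hOS 10 (32182), OFF S alpha 14 (6900), Eyewire 6sw 21 (3584) and PixON 27 (4805). These 5 cells belonged to 5 different subtypes, and no subtype with several cells had it in more than 1 of them. At a threshold of 4 times the trimmed mean, or with quantile normalization, Scn3a was detected in 3 cells. All its detections rest on 1439204_at, since its other probe set did not exceed 313. Scn7a, an atypical member linked to sodium sensing, was detected in ON-OFF DS 5 (9238), ON-OFF DS 7 (8293), ON hOS 10 (8287), Eyewire 6sw 21 (6481) and ON S non-alpha 28 (34814). In the 9 alpha cells it ranged from 6 to 175. These values are from 1436044_at. Of the other Scn7a probe sets, 1436043_at passed only in ON-OFF DS 7 (3112) and 1427495_at in no cell. In ON S non-alpha 28 they read 2 and 7. Eyewire 6sw 21 held 5 of 14 RGC markers beside 9 of 9 rod, 6 of 6 cone, 5 of 8 bipolar and 5 of 12 glial markers. ON S non-alpha 28 held 7 RGC markers beside 9 rod, 4 cone, 4 bipolar and 6 glial markers, and was the 1 cell with the astrocyte and Müller glia gene Aqp4. The part of RNA from other cells in their Scn3a and Scn7a signals was not tested. The other 3 cells with Scn7a held 10 to 13 RGC markers, at most 1 bipolar marker and 3 glial markers each. ON-OFF DS 7 was rod-rich, with 7 of 9 rod and 2 of 6 cone markers, and ON-OFF DS 5 and ON hOS 10 held 0 of either. ON-OFF DS 5 was the 1 cell with Slc1a3 (18251), a glial marker like Aqp4. The glial list did not single out these cells. Over all cells the median was 3 of its 12 genes (0 to 7), with Clu in 27 cells, Dkk3 in 21, and Apoe and Kcnj10 in none. OFF T alpha 17 and ON alpha 12 held 7 and 6 glial markers, with Scn7a at only 24 and 41.

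Scn1a, the alpha subunit gene mutated in Dravet syndrome, was detected in ON hOS 10 alone, at 21267. The next highest cell at that probe set was ON DS 1 at 879. The call rests on 1 of 3 probe sets, since the other 2 read 90 and 95 in ON hOS 10. The highest signals of those 2 were 2391 in OFF T alpha 17 and 1484 in OFF T alpha 19, both under the threshold. ON hOS 10 also had Scn2a, Scn3a, Scn7a and Scn8a (32601), 5 alpha genes in 1 soma, and Scn2b besides. It had 0 rod markers and 2713 detected genes, below the median. Scn9a, a channel of peripheral sensory neurons, did not exceed 460 in any cell at its brightest probe set, and none of its 5 probe sets passed. For 0 of 29 cells the interval reaches 11.9%.

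Scn2b, whose product is joined to the alpha subunit by a disulphide bond, was the most widely detected beta gene. In ON DS cells it gave 35, 11964, 10496 and 182, and in ON-OFF DS cells 2181, 24446, 4403 and 3720. The 2 ON alpha cells gave 4609 and 6905, the OFF S alpha cells 8347, 75, 30512 and 1, and the OFF T alpha cells 4068, 313 and 192. Detection was thus nearly equal in the DS (5 of 8) and alpha (5 of 9) classes, with medians of 4061 and 4068. It was also present in ON hOS 10 (13602), J-RGC 11 (12327), Eyewire 6sn 22 (42211, the highest of all cells) and PixON 27 (6755). LED 29, at 2792, lay just below the threshold.

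Among Scn2b probe sets, 1430648_at passed in 5 cells, all of them among the 14 of the main probe set 1436134_at (r = 0.65, rho = 0.61 over the 29 cells). Another, 1457144_at, passed in Eyewire 4i 24 only, at 54220, where the main one read 108.

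Scn3b, which encodes a beta subunit that binds without a covalent link, was detected in 8 cells. ON DS cells gave 25, 22274, 40305 and 8, and ON-OFF DS cells 6095, 3900, 53 and 16521. Of the 9 alpha cells only OFF S alpha 15 had it, at 16144, and the other 8 ranged from 1 to 79. The remaining cells with Scn3b were J-RGC 11 (10524) and LED 29 (6440), and its second probe set passed in none. Scn4b, whose product is known for resurgent sodium current, was at most 479 in any cell, on the 1 probe set it has. The study did report Scn4b RNA in adult RGCs. It found the gene by RNA sequencing among 8 classified RGCs, and by in situ hybridization in few cells of the ganglion cell layer. The low array signal thus does not show that RGCs lack Scn4b.

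**Figure D3:**
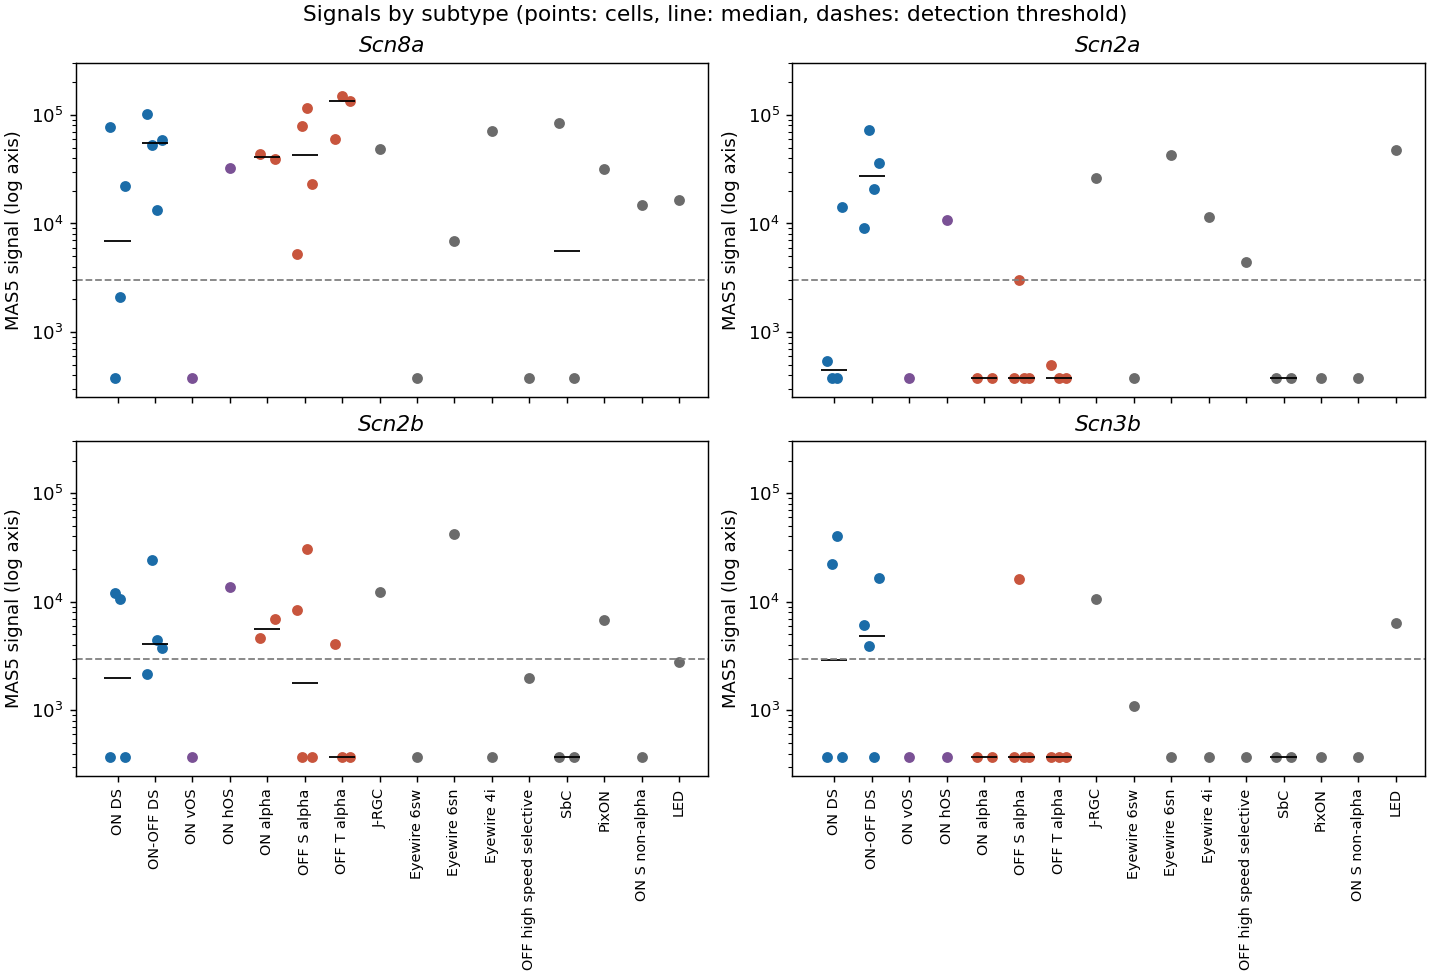
MAS5 signal on a logarithmic axis by subtype, with 1 point a cell, values under 375 drawn at 375, a line at the median of subtypes with several cells and the threshold of 3000 dashed. For Scn2a the 4 ON-OFF DS points lie between 9137 and 71823 and the 9 alpha points at or below 3028.

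The question of whether DS and alpha cells differ in these genes was put as the share of cells with detection. Scn2a and Scn3b were each found in 5 of 8 DS cells and 1 of 9 alpha cells, a difference of 51.4 percentage points. Each difference was 46.0 points when 1 of its 5 DS cells was left out. Of the 7113 genes, 1.21% were higher in DS cells by 50 points or more and 1.43% higher in alpha cells. Scn7a was 25 points higher in DS cells, Scn2b 6.9 and Scn3a 1.4, and Scn8a was 25 points lower (medians 37410 and 60268). Scn1a, Scn9a and Scn4b were found in fewer than 3 cells and are not among the 7113. The median over the 6 members among the 7113 genes was 16 points, against 0.0 over all of them. This median falls between Scn2b (6.9) and Scn7a (2 of 8 DS and 0 of 9 alpha cells). Scn1a, Scn9a and Scn4b, which it leaves out, each differed by 0.0 points, so it does not describe all 9 members.

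Rod content differed between these classes: 3 of 8 DS and 6 of 9 alpha cells were rod-rich, with a median of 2968.5 and 3015 detected genes. In cells that were not rod-rich Scn2a was detected in 4 of 5 DS and 0 of 3 alpha cells, and in rod-rich cells in 1 of 3 and 1 of 6. Scn3b gave those same counts. The difference in both genes was thus wider in the cells with few rod markers, on 8 cells in all.

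**Figure D4:**
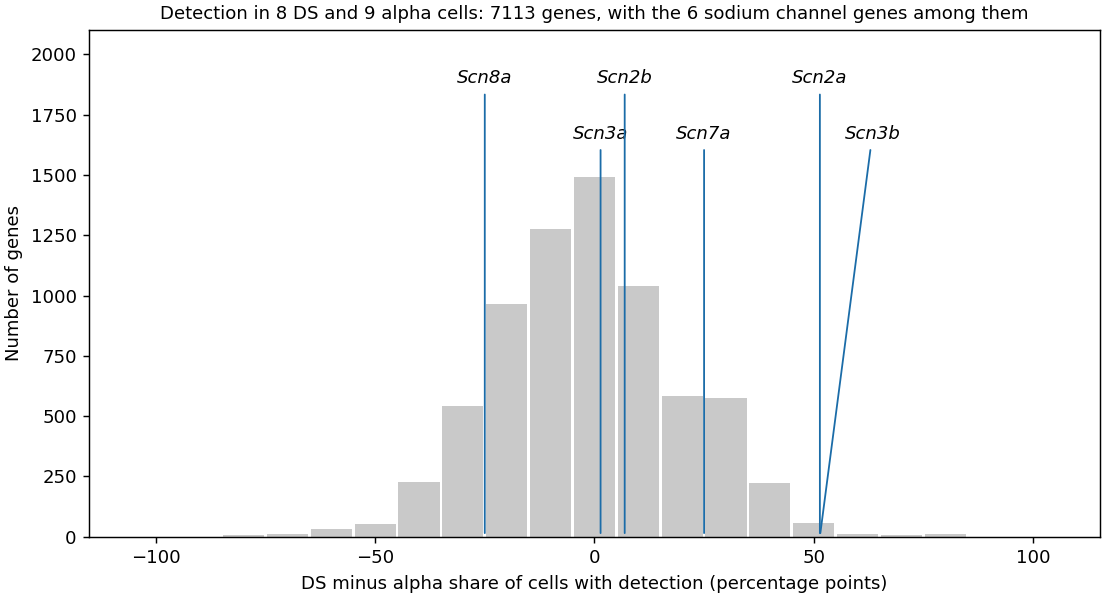
The grey bars count genes by the difference between the share of DS and of alpha cells in which they were detected, in percentage points, for 7113 genes, and blue lines mark the 6 sodium channel genes among them. Scn2a and Scn3b stand at 51.4 points, and Scn8a at -25.

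Alpha and beta subunits were detected together in 16 of 29 cells (55.2%, 35.7 to 73.6%). A further 10 cells had an alpha gene only, ON DS 3 had beta genes only, and ON vOS 9 and SbC 26 had none of the 9. ON DS 3 had Scn8a at its separate probe set, as given above. Counting any probe set of a gene, 18 cells had both kinds.

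The most frequent content was Scn8a alone, in 5 cells: ON DS 1, OFF S alpha 18, OFF T alpha 19, OFF T alpha 20 and SbC 25. Scn8a with Scn2b made up 4 cells, all of them alpha cells (ON alpha 12 and 13, OFF S alpha 16 and OFF T alpha 17). Scn2a and Scn8a with both Scn2b and Scn3b were found in ON-OFF DS 6, ON-OFF DS 8 and J-RGC 11. ON-OFF DS 5 and 7 had Scn2a, Scn7a and Scn8a with Scn3b in the first and Scn2b in the second. At the detection threshold used here all 4 ON-OFF DS cells thus held exactly 4 members, alpha and beta together. That equal count depends on the threshold. Scn3b in ON-OFF DS 6 (3900) and Scn2b in ON-OFF DS 7 (4403) and 8 (3720) lay below 4 times the trimmed mean. At that cut ON-OFF DS 7 would hold no beta gene. Scn2b in ON-OFF DS 5 (2181) and Scn3a in ON-OFF DS 6 (1664) lay above the trimmed mean but were not detected. Among the 4 ON DS cells the number of detected members ran from 1 to 3 and only ON DS 2 combined alpha and beta genes. Alpha cells held 1 to 3 members.

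Scn8a was present in 11 of the 12 Scn2a cells (91.7%), 12 of the 14 Scn2b cells (85.7%) and 6 of the 8 Scn3b cells (75.0%). Its share over all cells was 79.3%. OFF high speed selective 23 had Scn2a only. The log2 signals of Scn2a and Scn8a correlated at r = 0.19 over the 29 cells. Scn2b and Scn3b shared 5 cells, ON DS 2, ON DS 3, ON-OFF DS 6, ON-OFF DS 8 and J-RGC 11.

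**Figure D5:**
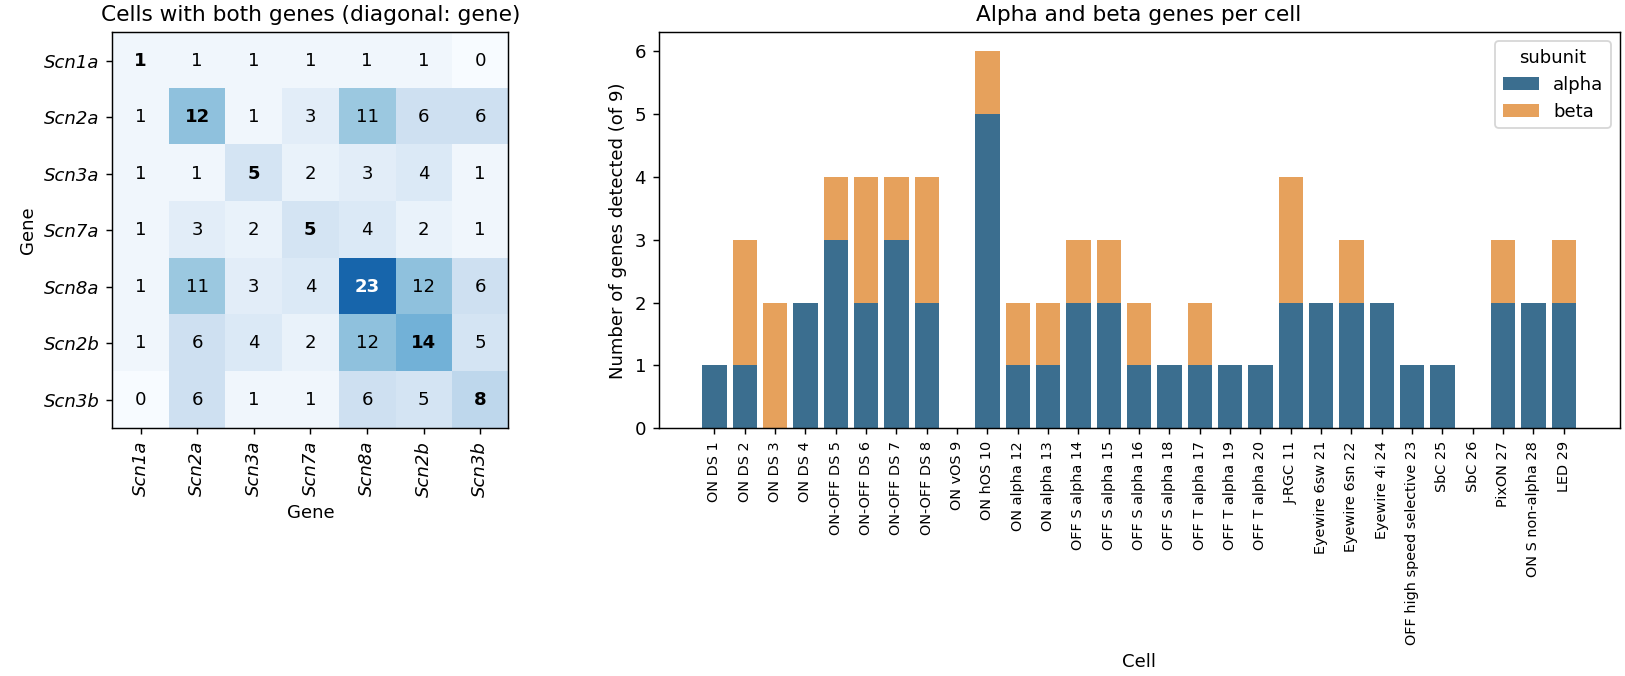
Left, the number of cells in which both genes of a pair were detected, with the number for each gene on the diagonal, for the 7 members found in any cell. Right, stacked bars count the alpha and beta genes detected in each cell at the detection threshold used here. They run from 0 in ON vOS 9 and SbC 26 to 6 in ON hOS 10, with 4 in each ON-OFF DS cell.

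Cells with few rod markers held more members. In the 11 cells that were not rod-rich, 9 had an alpha and a beta gene (81.8%, 48.2 to 97.7%) and the median was 3 members. In the 18 rod-rich cells the count was 7 (38.9%, 17.3 to 64.3%) and the median 2. Their numbers of detected genes were alike, with medians of 2748 and 2944.5. Over the 29 cells the number of members correlated with the mean log2 signal of the rod markers at r = -0.56 (rho = -0.53) and with the number of detected genes at r = 0.36 (rho = 0.35). What rod RNA contributes to these differences was not tested.

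Signals of alpha and beta genes were only loosely related across the 29 cells, where all points share the floor of 375 and differ in library quality. The 8 pairs had a mean r of 0.11. The highest were Scn3a with Scn2b (r = 0.36, rho = 0.44), Scn2a with Scn2b (r = 0.32, rho = 0.26) and Scn2a with Scn3b (r = 0.32, rho = 0.29). Scn8a had an r near 0 with Scn2b (0.02) and with Scn3b (-0.07), and without the rod-rich cells these were -0.40 and -0.28 over 11 cells.

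For each member found in 5 or more cells, the genes of most similar signal were taken from 5619 genes detected in 5 or more cells, by Pearson r over the 29 cells. Genes picked for a high r tend to be detected in the same cells, so the shared cells given below are no separate support. Scn8a was closest to Cyb5r3 (r = 0.87), a cytochrome b5 reductase, Fgf1 (0.80), a fibroblast growth factor, and Wdr7 (0.80), and Cyb5r3 was detected in 24 cells including all 23 with Scn8a. Scn2a was closest to Enpp5 (0.70), Cntn6 (0.64), a contactin adhesion protein, and Rnf112 (0.63). Enpp5 was detected in 18 cells, including all 12 with Scn2a. Scn2b was closest to Tmem163 (0.79), Unc80 (0.75), a component of the NALCN sodium leak channel complex, and Nrn1 (0.75), which encodes neuritin, and all 8 cells with Unc80 had Scn2b. Scn3b was closest to Kcnc4 (0.72), a fast voltage-gated potassium channel gene, Uhrf1bp1l (0.72) and Tpst1 (0.65). Kcnc4 was detected in 13 cells, including all 8 with Scn3b. For Scn3a the nearest were Nolc1 (0.74), Rnpep (0.70) and Tle4 (0.66), and for Scn7a Fubp1 (0.70), Tspan4 (0.70) and Kat6b (0.69). These 2 members were detected in 5 cells each, of which Nolc1, Rnpep, Tle4 and Kat6b shared 4. Without the 2 cells farthest from the median, r was 0.56 for Nolc1, 0.43 for Rnpep and 0.46 for Tle4. No member was among the genes named for another.

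Genes whose products hold or bind sodium channels at the initial segment were detected to very different extents. Of 14 such initial segment and partner genes with a probe set, 7 were detected in 15 or more cells, where 10.6% of all genes were: Ank3, the ankyrin-G gene, in 25, Cntn1 in 21, Sptbn4, the beta-IV spectrin that links ankyrin-G to actin, in 20, Fgf11 in 19, Fgf12 and Nfasc in 18 each and Nrcam in 17. Fgf11 and Fgf12 encode fibroblast growth factor homologous factors that bind the tail of the alpha subunit. Cntn2 and Trim46 were detected in 13 cells each. Others were rare: Fgf13 and Nedd4l, a ubiquitin ligase that acts on sodium channels, in 4 cells each, Fgf14 in 2, and Cntnap1 and Dlg4 in none. Of other sodium channel genes with a probe set, Scn10a and Scn11a, of peripheral sensory neurons, were detected in no cell and Nalcn in 5.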

How the data were processed

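Total RNA of 29 single cells was measured, 1 Affymetrix mouse genome array a cell. The authors deposited linear MAS5 signal intensity values per probe set, normalized so that the 2% trimmed mean of every array was 1500. Libraries had been selected for a cDNA smear on a gel and were hybridised at 2 facilities, and no source used here says which array ran where. Amplification from an oligo-dT primer favours the ends of transcripts, so a probe set far from that end can stay dark. No further normalization was applied. Of 45101 probe sets, 34958 had 1 gene in the annotation table, 932 had several and 9211 none. Each gene was read at 1 probe set, the brightest by mean log2 signal over all cells (floor 375). Shares have exact Clopper-Pearson 95% intervals, and array number limits the precision. The members and lists were chosen with earlier results of these data known. All 9 members were named, and for each member in 5 or more cells the 3 genes with the highest r. Alternatives were other thresholds, any probe set, quantile normalization and leaving out cells, and scripts were tested on simulated data. Python 3.11.15, numpy 2.4.6, scipy 1.17.1, pandas 2.3.3 and matplotlib 3.10.9 were used.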

Additional observations from a re-analysis of the deposited data

Results flagged for a closer look

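In 17 sets of 4 cells of 1 subtype, 1 cell stood far from the other 3 in 7 cases. Most of these sets had 3 cells below the floor of 375, so that any cell above it stood apart. A chance rate of about 1 in 20 does not hold for such tied values, so it cannot be set against the 7 cases. Among ON DS cells they were Scn1a in ON DS 1 (879, below the detection threshold), Scn2a in ON DS 4 (14067, with the others at 4, 7 and 543) and Scn3a in ON DS 2 (17673, the others at 6, 170 and 184). Among ON-OFF DS cells it was Scn3a in ON-OFF DS 6 (1664, also below threshold). Among OFF S alpha cells they were Scn3a in OFF S alpha 14 (6900), and both Scn2a (3028) and Scn3b (16144) in OFF S alpha 15, the single alpha cell with either gene.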

How the results depend on the processing

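The count of members at least 50 points more frequent in DS than in alpha cells was 2, and 1 at a threshold of 4 times the trimmed mean, 1 with quantile normalization, and 0 to 2 when single cells were left out (1 if ON DS 2, 3 or 4 or ON-OFF DS 7 was dropped, 0 if ON-OFF DS 5, 6 or 8 was). Leaving out single cells gave 62 to 68 detections, 15 to 16 cells with alpha and beta genes, 46.0 to 62.5 points for Scn2a and for Scn3b, a mean alpha-beta r of 0.08 to 0.16 and an r of members with detected genes of 0.25 to 0.43. The ratio of the lowest ON-OFF DS to the highest alpha signal of Scn2a ranged from 3.02 to 18.53. The higher value, without OFF S alpha 15, divides by an alpha signal of 493, below the threshold, and is no measured fold, and without ON-OFF DS 5 it was 6.81. Without the 18 rod-rich cells, which leaves 11 cells (5 DS and 3 alpha), there were 35 detections and 9 cells with alpha and beta genes, the mean alpha-beta r was 0.06, the Scn2a ratio was again 18.53 against that undetected signal, Scn2b turned from 6.9 to -6.7 points, and the r of members with detected genes turned to -0.07 from 0.36. These counts fall because fewer cells are left, and the cause of the changed r was not tested. Of the other checks on the main results, 27 stayed near the main value. No paired analysis was possible because the labels give no replicate numbers that groups share. All alternatives for the Scn2a ratio, and leaving out rod-rich cells for detections and depth, were chosen after seeing the data.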
